A study of Homo sapiens with 6 samples.

Results

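AXL, a receptor tyrosine kinase, was followed through 6 RNA sequencing libraries of the ovarian cancer line SK-OV-3, an established human cell line labelled wild type. It was found as the single row with the symbol AXL (ENSG00000167601), 1 of 459 genes in the authors' deposited table. Of the libraries, 3 came from cells given fulvic acid (FA), the part of soil humic matter that stays dissolved in water, in the medium (100 µg/ml, 48 h), and 3 came from control cells without FA. The table holds raw read counts and FPKM values (a level corrected for transcript length and for the depth of the library) for genes that had passed the authors' limits on fold change and false discovery rate (FDR). AXL therefore had to differ between the groups to be in the table, and its difference is given as a description. The labels do not state whether replicate libraries were grown as separate cultures, so spreads and p-values describe only these libraries and may be technical.

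AXL belongs with TYRO3 and MERTK to the TAM family of receptors, which carry immunoglobulin-like and fibronectin type III domains outside the cell and a tyrosine kinase domain inside it. Its ligand is GAS6, a vitamin K-dependent protein that bridges the receptor to phosphatidylserine on membranes. Signalling runs through adaptors such as GRB2 and through phosphatidylinositol 3-kinase and AKT. In ovarian carcinoma, AXL is known for its link to invasion, to a mesenchymal cell state and to resistance to therapy, and its gene is a known target of the transcription coactivators YAP and TAZ, which act through TEAD factors.

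The AXL gene lies on chromosome 19, positions 41219203 to 41261766 of GRCh38, plus strand (GENCODE release 29), and is protein-coding. GENCODE annotates 5 transcripts, of which 3 are protein-coding. AXL-201 has 20 exons and 4737 bases, AXL-202 has 19 exons and 3206 bases, and AXL-203 has 17 exons and 2557 bases and starts inside the gene at position 41226755. The exons of an antisense gene, AC011510.1, cover 1.30% of the exonic bases of AXL, and whether reads were counted by strand is not given in the sources used here. Around AXL, 116 annotated genes lie within 1 Mb, 64 of them protein-coding, and 0 of these are among the 459 listed genes. The nearest protein-coding neighbours are HNRNPUL1, which starts 730 bases past the end of AXL, and CYP2S1, a cytochrome P450 gene that ends 11664 bases before it.

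RefSeq gives AXL a start site for each of the long and the internal transcripts, and the 250 bases before each site are shown as a description. The counts measure the level of RNA and not transcription itself. The first RefSeq site, 41219223, lies between the GENCODE starts of AXL-201 (41219203) and AXL-202 (41219235). The end of the first window thus lies inside AXL-201, and distances are counted from the RefSeq sites. Capitals mark matches on either strand to a motif of SP1 (GGGCGG), of TEAD factors (GGAATG) or of the aryl hydrocarbon receptor, AHR (GCGTG); AP-1 (TGANTCA) was searched too. No matches overlap one another.
AXL, first start site, GRCh38.p14 chr19:41218973-41219222, plus strand: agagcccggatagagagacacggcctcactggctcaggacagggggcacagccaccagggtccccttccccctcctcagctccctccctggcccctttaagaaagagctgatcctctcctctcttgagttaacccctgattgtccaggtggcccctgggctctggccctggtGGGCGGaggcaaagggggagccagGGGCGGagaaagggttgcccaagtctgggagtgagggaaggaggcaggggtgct
AXL, internal start site, GRCh38.p14 chr19:41226505-41226754, plus strand: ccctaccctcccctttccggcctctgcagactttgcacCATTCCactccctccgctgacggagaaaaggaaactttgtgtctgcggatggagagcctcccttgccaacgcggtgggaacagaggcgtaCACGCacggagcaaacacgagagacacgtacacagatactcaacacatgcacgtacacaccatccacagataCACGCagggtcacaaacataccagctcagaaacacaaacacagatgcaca
The first window holds the SP1 motif at 2 places, starting 78 and 54 bases before the start site, and none of the other motifs. The internal window holds the TEAD motif 212 bases before its start site, in the reverse form CATTCC, and the AHR motif at 2 places, 122 and 50 bases before it, in the reverse form CACGC. Among 35116 RefSeq windows of the same length, 42.6% hold the SP1 motif, 11.9% the TEAD motif, 32.2% the AHR motif and 6.57% the AP-1 motif. A match is a description of the sequence and does not show that a factor binds there.

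The implied depth was 39900000 to 50900000 fragments per library, overlapping between the groups, and the listed genes held 1.34% to 1.68% of it. The control libraries differed along the GC content of the transcripts. Over 371 genes, which are not independent replicates, the deviation of a library from its group's mean had a Spearman's rho with GC content of 0.084, 0.20 and -0.25 in FA 1, 2 and 3, against -0.75, 0.34 and 0.64 in control 1, 2 and 3. Deviations within a group sum to 0, so these values depend on one another. Within the control group AXL, at 53.9% GC, was lowest in control 1 and highest in control 3, and its fold change is also given without either. The part of GC content in the AXL result was not tested. None of the 8 markers chosen for SK-OV-3 and ovarian carcinoma, the 9 of leukocytes or the 6 of endothelium is in the table, so the labelled cell type was not checked here, and of 8 fibroblast markers COL1A1 is in it. In bulk RNA, fewer cells with AXL transcripts and less AXL transcript per cell cannot be told apart.

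The mean AXL level with FA was 38.8% of that in control cells, as FPKM. It had 4056, 3985 and 4456 counts in FA 1, 2 and 3, against 9222, 11340 and 12507 counts in control 1, 2 and 3. As CPM (counts divided by the recovered depth, which leaves out transcript length), it had 101.7, 89.2 and 87.5 in FA 1, 2 and 3, against 212.2, 232.2 and 263.7 in control 1, 2 and 3. All FA libraries lay below all control libraries, and in CPM the lowest control library was 2.09 times the highest FA library. As FPKM, AXL had 25.2, 21.7 and 20.9 in FA 1, 2 and 3, against 49.5, 58.6 and 66.7 in control 1, 2 and 3. The mean was 22.6 ± 2.27 FPKM with FA and 58.3 ± 8.60 FPKM in control cells (SD, n = 3 each), a difference of -35.7 FPKM. With 3 libraries against 3, the exact permutation test on FPKM (two-sided) gave p = 0.1, the smallest it can give.

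**Figure D1:**
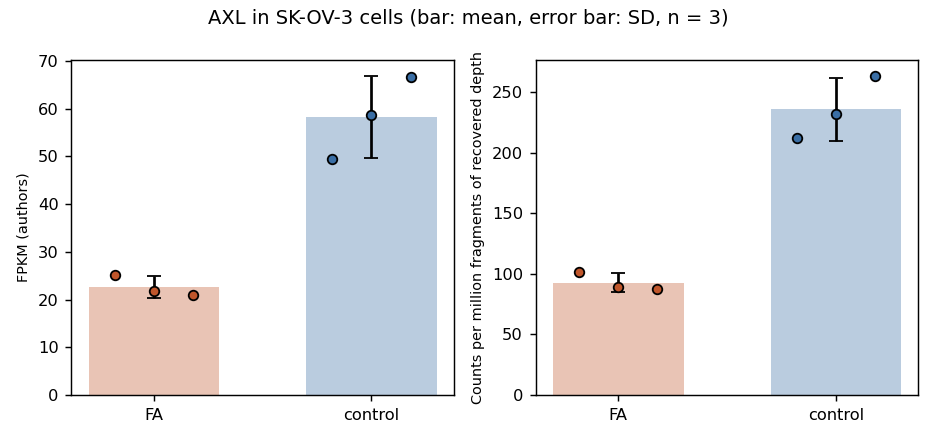
AXL in each library, as FPKM (left) and as CPM, counts scaled by the recovered depth (right), with bars for the mean and error bars for the SD of 3 libraries per group. The FA libraries lie between 20.9 and 25.2 FPKM, and the control libraries between 49.5 and 66.7 FPKM. TMM (trimmed mean of M-values, a scaling that takes most genes as unchanged) over the listed genes alone brings the log2 fold change to -0.10. Scaling by the column totals of the listed genes brings it to -1.11.

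An edgeR quasi-likelihood fit over all 459 genes, scaled by depth, gave AXL a log2 fold change of -1.35 (SE 0.13, 95% interval -1.64 to -1.06, adjusted p = 1.9e-06), which is 2.54-fold lower with FA. The authors' deposited table gives -1.29 with an FDR of 1.8e-21. All 459 genes passed in both (100% called), and 74.5% of them were lower with FA, so the call sets AXL apart from none of them. The log2 fold change was -1.42 without control 1 and -1.26 without control 3, and over all 6 ways of leaving out a library it stayed between these values. When the libraries were instead scaled by TMM (trimmed mean of M-values, a scaling that takes most genes as unchanged) over the listed genes alone, the log2 fold change was -0.10 with an edgeR adjusted p = 0.53. By construction that scaling centres the typical listed gene. It raised the median log2 fold change of all listed genes by 1.24 and that of AXL by 1.24. With it 17.6% of the listed genes were called lower. A gene with a change near the median thus had to come near 0. Lost calls and changed signs under TMM, here and below, describe a gene's place among the listed genes only.

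**Figure D2:**
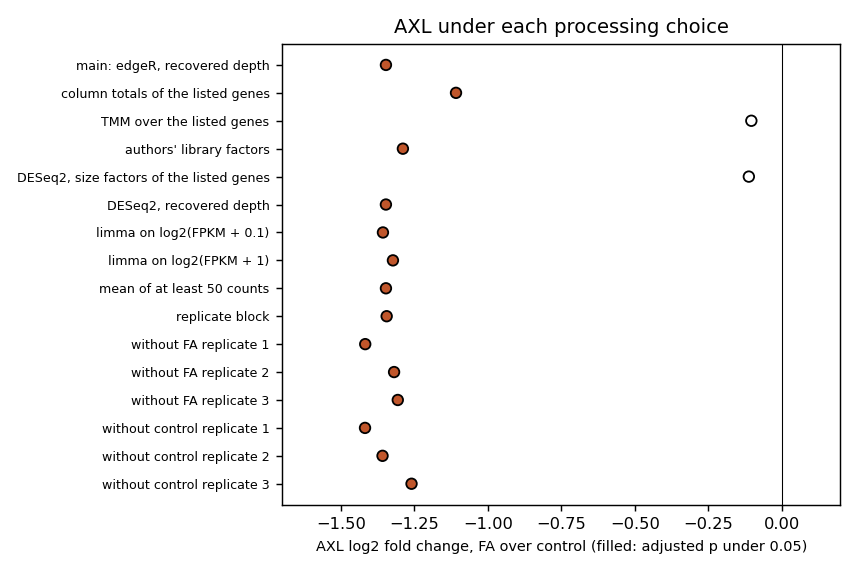
The log2 fold change of AXL, FA over control, under each processing choice, with filled points for an adjusted p under 0.05. All values are below 0, and the open points are TMM at -0.10 and DESeq2 size factors at -0.11, both computed from the listed genes alone.

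Counting error was a small part of the spread of AXL. The counts alone imply a relative error of 1.50% to 1.58% in the FA libraries and of 0.894% to 1.04% in the control libraries. Between libraries, the coefficient of variation of CPM was 8.32% with FA and 11.0% in control cells. The standard error of the AXL fold change, 0.13 on the log2 scale, compares with a median of 0.21 over the listed genes. Reads are not independent molecules without molecular identifiers, so these errors cover counting only.

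AXL was among the more abundant listed genes and near the middle of them by size of change. By mean FPKM it ranked 50 of 459 with FA and 31 of 459 in control cells, where the median listed gene had 1.48 FPKM with FA and 2.34 FPKM in control cells. The genes next to it in the FA order were CDH1, the epithelial cadherin, at 22.6 ± 1.52 FPKM and IGFBP6, which binds insulin-like growth factors, at 22.1 ± 2.56 FPKM. In the control order the gene just above it was EPHA2, a receptor tyrosine kinase, at 61.3 ± 8.71 FPKM. AXL did not differ from CDH1, IGFBP6 or EPHA2 by more than the SD in that group.

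By its decrease on the log2 scale, AXL ranked 199 of the 342 lower genes. Their median was -1.42, with quartiles of -1.87 and -1.22, and the median of all 459 genes was -1.28, from which AXL differed by -0.069. Among the 28 lower genes with a control level at or above that of AXL, which include AXL, it ranked 16 by decrease.

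**Figure D3:**
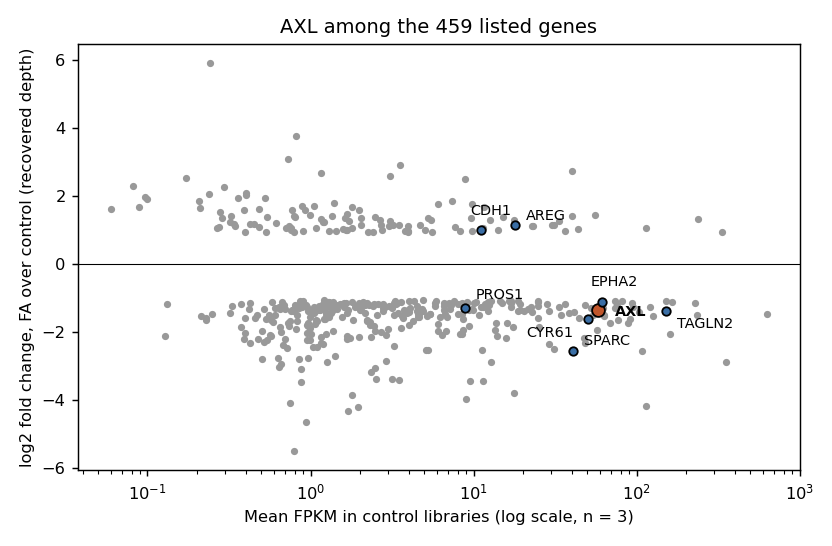
Mean FPKM in the control libraries (log axis) against the log2 fold change, FA over control, scaled by depth, for all 459 listed genes, 1 point each. AXL stands at 58.3 FPKM and -1.35, beside EPHA2 at 61.3 FPKM and -1.10, which changes sign under TMM over the listed genes. The empty band around 0 comes from the authors' limits.

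Counts and FPKM together imply the transcript length with which the authors scaled AXL. It was 4037, 4107 and 4187 bases in FA 1, 2 and 3, against 4283, 3962 and 3952 bases in control 1, 2 and 3. Control 1 had the longest value and the other control libraries the shortest, so the groups overlapped. The mean was 4110 ± 75.1 bases with FA and 4066 ± 188 bases in control cells (SD, n = 3 each; exact permutation test, two-sided, p = 0.8). All values lie between the lengths of AXL-202 and AXL-201. Their absolute scale rests on the depth estimate, and the table gives no values per transcript.

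Of the 5 genes for TAM receptors and their ligands, AXL and PROS1 are in the table. PROS1 encodes protein S, an anticoagulant that is also a ligand of TYRO3 and MERTK. It had 4.06, 3.15 and 3.63 FPKM in FA 1, 2 and 3, against 12.3, 7.26 and 7.11 FPKM in control 1, 2 and 3, without overlap. Control 1 was the highest library for PROS1 and the lowest control library for AXL. The log2 fold change of PROS1 was -1.29 (SE 0.21; edgeR adjusted p = 8.6e-05), and -0.99 without control 1. Under TMM over the listed genes it was -0.056 (edgeR adjusted p = 0.89) and lost its call. GAS6, TYRO3 and MERTK were not analysed here, since genes outside the table have no values.

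Of 58 receptor tyrosine kinases, AXL and EPHA2 are in the table. EPHA2, a receptor for ephrin-A ligands, had 31.8, 27.5 and 26.5 FPKM in FA 1, 2 and 3, against 52.1, 62.3 and 69.4 FPKM in control 1, 2 and 3. Its libraries came in the same order within each group as those of AXL. How many listed genes share that order was not counted. The control libraries differed along GC content (53.9% for AXL, 60.3% for EPHA2), and the part of GC content in the order was not tested. The groups did not overlap, and the log2 fold change was -1.10 (SE 0.14; edgeR adjusted p = 1.2e-05), though it became 0.14 under TMM over the listed genes.

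Of 58 ligands of receptor tyrosine kinases, 4 are in the table, 1 higher and 3 lower with FA, where 74.5% of all listed genes were lower. AREG, which encodes the epidermal growth factor receptor ligand amphiregulin, rose: it had 38.4, 41.7 and 38.9 FPKM in FA 1, 2 and 3, against 19.2, 17.2 and 17.4 FPKM in control 1, 2 and 3. Its log2 fold change was 1.15 (SE 0.13; edgeR adjusted p = 6.3e-06). KITLG, the ligand of the receptor KIT, had 0.973, 0.534 and 0.868 FPKM in FA 1, 2 and 3, against 3.98, 2.80 and 2.16 FPKM in control 1, 2 and 3. It fell by 1.91 on the log2 scale (SE 0.27), and under TMM over the listed genes its log2 fold change was -0.68 and lost its call (edgeR adjusted p = 0.078). EFNB1, the ephrin-B1 ligand of EPHB receptors, averaged 7.85 ± 0.837 FPKM with FA and 16.6 ± 2.43 FPKM in control cells, a log2 fold change of -1.08 that became 0.16 under TMM over the listed genes. PROS1 is the remaining member.

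Genes that act on or downstream of such receptors were also looked up in the table. The share of all expressed genes that reach the table is not known here. The counts of listed members, for these and the other lists, are therefore descriptions. Of 22 feedback regulators, SOCS3, a suppressor of cytokine signalling, is in it, with 6.20, 4.88 and 3.76 FPKM in FA 1, 2 and 3, against 11.9, 18.2 and 18.3 FPKM in control 1, 2 and 3 (log2 fold change -1.71, SE 0.22). Under TMM over the listed genes SOCS3 was at -0.47 and lost its call (edgeR adjusted p = 0.081). None of 25 adaptors and effectors of AXL is listed. Of 22 transcription regulators linked to AXL, JUNB, a subunit of AP-1, is listed. It averaged 50.9 ± 3.53 FPKM with FA and 120.1 ± 20.9 FPKM in control cells, a log2 fold change of -1.24 that became 0.0070 under TMM over the listed genes. Of the exonic bases of JUNB, 14.2% are shared with HOOK2, so its counts may be shared.

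AXL is 1 of 22 genes in a set of YAP and TAZ targets, and 9 of the 22 are in the table, of which 8 were lower and 1 higher with FA. Without AXL, for which the set was chosen, 8 are in the table and 7 were lower. The median log2 fold change of the 9, AXL included, was -1.60, against -1.28 over all 459 genes, of which 74.5% were lower. CTGF and CYR61, secreted matricellular proteins and the best known targets of YAP, both fell. CTGF had 4.14, 3.24 and 2.35 FPKM in FA 1, 2 and 3, against 13.9, 13.4 and 14.4 FPKM in control 1, 2 and 3 (log2 fold change -2.10, SE 0.20; edgeR adjusted p = 1.5e-06). CYR61 had 18.4, 16.5 and 15.0 FPKM in FA 1, 2 and 3, against 48.2, 49.0 and 54.0 FPKM in control 1, 2 and 3 (log2 fold change -1.60, SE 0.13). In both, FA 1 was the highest FA library, as it was for AXL. The lowest control library was control 1 for CYR61 and AXL but control 2 for CTGF. How many listed genes share such an order was not counted. ANKRD1, an ankyrin repeat protein that acts in the nucleus of muscle cells, was near its detection limit with FA, at 0, 2 and 8 counts in FA 1, 2 and 3, against 91, 79 and 91 counts in control 1, 2 and 3.

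The other members of that set covered a wide range of levels. Tissue factor (F3), the starter of the extrinsic coagulation pathway, averaged 30.1 ± 0.369 FPKM with FA and 91.8 ± 12.3 FPKM in control cells. TGFB2, a transforming growth factor, averaged 0.702 ± 0.0773 FPKM with FA and 2.23 ± 0.605 FPKM in control cells, and other genes, TGFB2-OT1 most, cover 26.6% of its exons. NT5E, the ectonucleotidase CD73, averaged 6.99 ± 0.197 FPKM with FA and 14.6 ± 2.58 FPKM in control cells, and its log2 fold change of -1.08 became 0.16 under TMM over the listed genes. CCDC80, a secreted matrix protein, averaged 0.184 ± 0.0101 FPKM with FA and 0.52 ± 0.10 FPKM in control cells. IGFBP3, which binds insulin-like growth factors, was the member that rose, with 602.4 ± 14.3 FPKM with FA and 237.7 ± 12.6 FPKM in control cells (SD, n = 3 each; log2 fold change 1.34, SE 0.11; edgeR adjusted p = 4.8e-07). Under TMM over the listed genes TGFB2 (-0.44) and CCDC80 (-0.076) lost their call. Of the 8 members other than AXL, 7 had a RefSeq window, 1 each. The TEAD motif was in 3 of these 7, the AP-1 motif in 2, the SP1 motif in 4 and the AHR motif in 1, against 11.9%, 6.57%, 42.6% and 32.2% of all windows, and 7 windows are too few to compare.

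Of 20 mesenchymal and invasion genes, 5 are in the table and all 5 were lower with FA, with a median log2 fold change of -1.45, where 74.5% of all listed genes were lower and their median was -1.28. TGFBI, a secreted matrix protein, had 1.43, 0.815 and 0.935 FPKM in FA 1, 2 and 3, against 10.0, 11.1 and 13.2 FPKM in control 1, 2 and 3. SPARC, a matrix glycoprotein, had 8.41, 6.04 and 6.57 FPKM in FA 1, 2 and 3, against 37.4, 39.7 and 45.0 FPKM in control 1, 2 and 3. Both fell by more than AXL on the log2 scale, by 3.42 and 2.54. The matrix metalloproteinase gene MMP2 and N-cadherin (CDH2) had log2 fold changes of -1.45 (SE 0.15) and -1.38 (SE 0.16), within an SE of that of AXL. LOXL2, a lysyl oxidase-like enzyme that crosslinks matrix and was named after its values were seen, averaged 14.2 ± 0.780 FPKM with FA and 33.6 ± 5.34 FPKM in control cells, and its log2 fold change of -1.25 was the only one of the 5 smaller in size than that of AXL. Under TMM over the listed genes MMP2 (-0.21), CDH2 (-0.14) and COL1A1 (-0.25) lost their call, and LOXL2 came to 0.0001. Of 21 epithelial genes, E-cadherin (CDH1) is in the table and rose, with 22.6, 21.1 and 24.1 FPKM in FA 1, 2 and 3, against 11.5, 11.0 and 11.1 FPKM in control 1, 2 and 3. COL1A1, the fibroblast marker in the table, averaged 0.214 ± 0.0926 FPKM with FA and 0.469 ± 0.0795 FPKM in control cells.

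**Figure D4:**
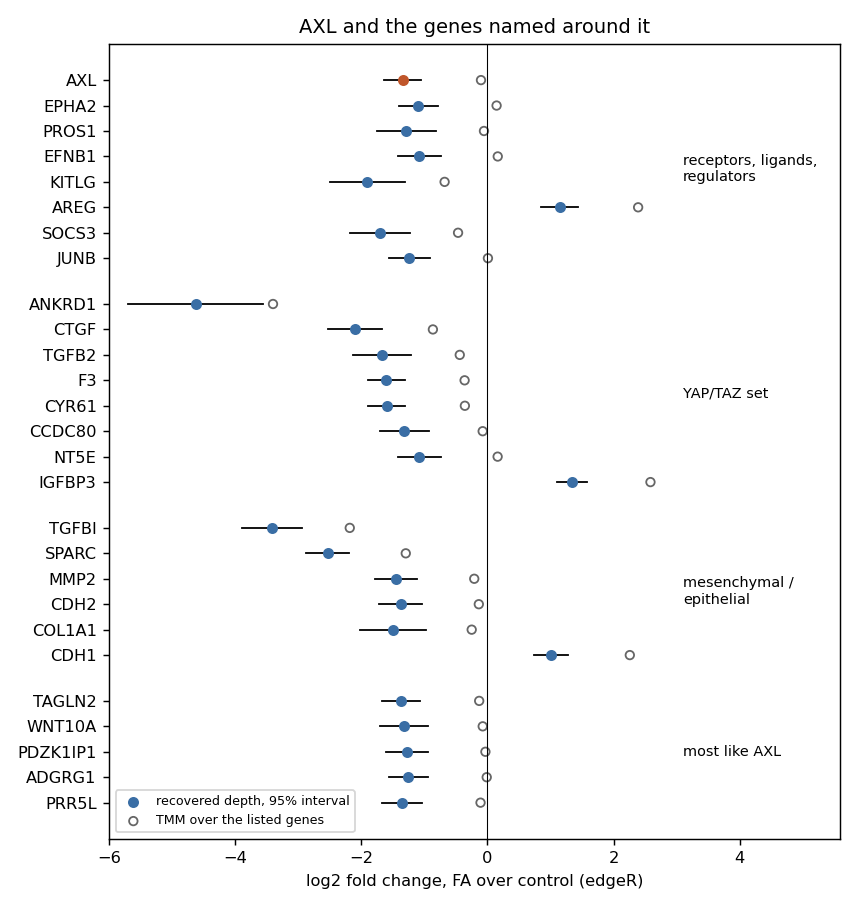
The log2 fold change, FA over control, of AXL and the other named genes, as filled points with 95% intervals under scaling by depth and as open points under TMM over the listed genes. AXL also belongs to the YAP/TAZ set, and MMP2 also to the genes most like AXL. Under TMM the points of EPHA2, EFNB1, JUNB and NT5E lie above 0, and AREG, IGFBP3 and CDH1 lie above 0 under both.

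The genes whose pattern over the 6 libraries was most like that of AXL were found by the distance between centred log2(FPKM + 0.01) profiles, among 370 other genes with an identifier and a mean of at least 50 counts. The closest was TAGLN2, an actin-binding protein of the transgelin family, at a distance of 0.092. TAGLN2 had 62.9, 59.1 and 54.0 FPKM in FA 1, 2 and 3, against 131.0, 151.3 and 175.0 FPKM in control 1, 2 and 3. It was followed by WNT10A, a secreted WNT ligand, at 0.16, PDZK1IP1, a small membrane protein, at 0.17, and the adhesion receptor ADGRG1 and MMP2, both at 0.21. PRR5L, a protein that binds mTOR complexes, was next at 0.22. The measure includes the difference between the groups, which all listed genes had to show, and is given as a description. It also includes the order of the control libraries, which differed along GC content, and the part of GC content in the likeness was not tested. Under TMM over the listed genes these 6 lost their call.

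Ratios of AXL to another gene within the same library do not depend on the depth by which the library is scaled. As ratios of FPKM they still depend on the transcript lengths used. The implied length of AXL varied between libraries, from 3952 bases in control 3 to 4283 bases in control 1. The part of length in the ratios was not tested. The ratios can also vary with GC content, along which the control libraries differed. GC content is 53.9% for AXL, 60.3% for EPHA2, 40.5% for PROS1 and 45.0% for CDH2, and its part in the ratios was not tested. The ratio of AXL to EPHA2 in FPKM was 0.791, 0.791 and 0.788 in FA 1, 2 and 3, against 0.951, 0.940 and 0.962 in control 1, 2 and 3. The groups did not overlap, so AXL was lower relative to EPHA2 with FA, by a log2 difference of -0.27, less than the decrease of either gene. The ratio to PROS1 was 6.20, 6.89 and 5.76 in FA 1, 2 and 3, against 4.02, 8.07 and 9.39 in control 1, 2 and 3, and overlapped. Likewise, the ratio to CDH2 averaged 13.1 ± 0.540 with FA and 13.2 ± 3.37 in control cells, with overlap.

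Relative to CYR61 and SPARC, AXL stood higher with FA. The ratio of AXL to CYR61 averaged 1.36 ± 0.0425 with FA and 1.15 ± 0.110 in control cells, and the ratio to SPARC 3.26 ± 0.309 with FA and 1.43 ± 0.0890 in control cells, both without overlap. Against E-cadherin the ratio was 1.11, 1.03 and 0.866 in FA 1, 2 and 3, and 4.32, 5.33 and 6.03 in control 1, 2 and 3. In FPKM, AXL thus stood near the level of CDH1 with FA and at 5.22 ± 0.858 times that level in control cells. A gap of this kind is given by the authors' limits, since AXL entered the table as lower and CDH1 as higher: the ratio of AXL did not overlap between the groups for any of the 117 higher genes (100%). Ratios were computed for 25 of the other named genes, leaving out ANKRD1, which is at 0 in FA 1. For the 22 lower ones the groups did not overlap in 6 (CTGF, CYR61, EFNB1, EPHA2, SPARC and TGFBI), against 31.8% of the 337 other lower genes of the table with a value above 0 in each library and 49.3% of all 454 such genes, higher ones included. The genes picked for likeness to AXL are among the 22, so this count says nothing further. For EPHA2, CYR61 and SPARC the exact permutation test (two-sided) gave p = 0.1, the smallest that 3 against 3 libraries allow, and an adjusted p = 0.278 over the 25, so none passed.

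**Figure D5:**
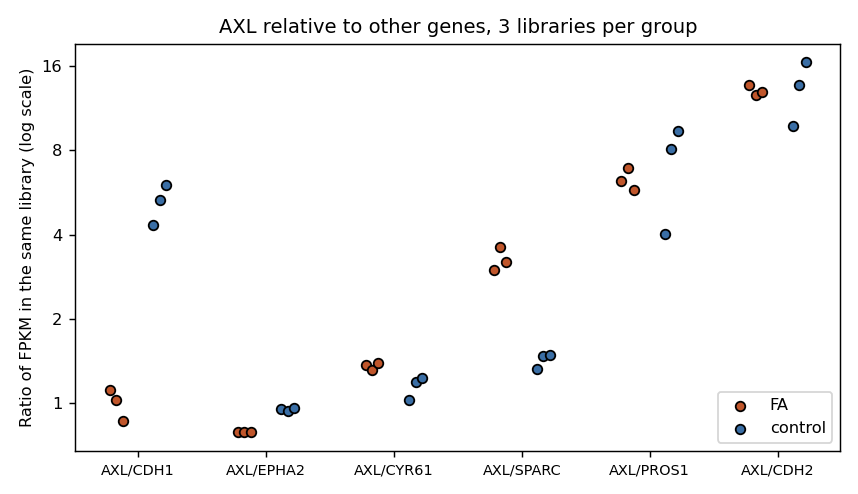
Ratio of AXL to 6 other genes in FPKM, each point 1 library, on a log axis. The FA and control points are apart for CDH1, EPHA2, CYR61 and SPARC and overlap for PROS1 and CDH2.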

How the data were processed

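RNA of 3 FA and 3 control libraries was measured by sequencing of polyadenylated RNA, per the labels' protocols. The deposited table gives raw counts, FPKM, an FDR (an adjusted p-value) and a log2 fold change, all made by the authors per the file headers. Per the submitters' processing notes, reads were placed on GRCh38. The sources used here do not name the aligner, counting tool or test. No listed gene has an FDR above 0.00977 or an absolute log2 fold change below 1.00.

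Groups came from the sample titles. Depth was recovered from count over FPKM: its relative value from 180 genes with at least 200 counts in each library, its scale from 16 genes with a single transcript and at least 100 counts. Counts of all 459 genes entered a quasi-likelihood test in edgeR 4.0.16 under R 4.3.3, with that depth as library size, group as the single term, Benjamini-Hochberg adjustment over 459 genes and a threshold of 0.05. SEs are the absolute log2 fold change over the square root of F. This fit uses genes selected on these libraries, so it measures spread and is no independent evidence. The script was tested on simulated data. Exact permutation tests used scipy 1.17.1. Alternatives used DESeq2 1.42.0 and limma 3.58.1.

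AXL and the 13 lists were chosen with earlier results of these data known. Named genes are AXL, members in the table of the lists of TAM genes, receptor tyrosine kinases, ligands, feedback regulators, adaptors, transcription regulators and YAP/TAZ targets, up to 4 by FDR of the other lists, and the 6 most like AXL, 27 in all. IGFBP6 and the genes of the locus are named as neighbours, and LOXL2 after its values were seen. Sequences are from RefSeq (GRCh38.p14).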

Additional observations from a re-analysis of the deposited data

How the results depend on the processing

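AXL kept its direction in all 15 alternatives and its call in 13 of them. It lost the call when TMM or DESeq2 size factors were computed from the listed genes alone. The log2 fold change was -0.10 under TMM (edgeR adjusted p = 0.53) and -0.11 under DESeq2 size factors (adjusted p = 0.56). By construction TMM and DESeq2 size factors centre the typical listed gene, and they raised the median of all listed genes by 1.24 each. They lowered the calls among the 459 genes to 198 with TMM (81 lower) and 204 with DESeq2 (87 lower). Column totals of the listed genes raised the median by 0.24 and gave AXL -1.11, and it kept its call. Leaving out each library gave AXL between -1.42 and -1.26 on the log2 scale, a difference in FPKM between -40.1 and -31.5, and 459 calls (342 lower) each time. Among the 27 other named genes, LOXL2 included, the sign changed under TMM for EPHA2 (0.14), EFNB1 (0.16), NT5E (0.16), JUNB (0.0070) and LOXL2 (0.0001), and under DESeq2 size factors for EPHA2 (0.14), EFNB1 (0.15) and NT5E (0.15). Another 13 lost their call under TMM and 14 under DESeq2, and none did under any other alternative. Same-numbered libraries did not all deviate together (correlations of -0.0090, 0.13 and -0.14 for numbers 1, 2 and 3). Libraries of unlike number had correlations from -0.19 to 0.19. Deviations within a group depend on one another, so these values cannot decide whether the numbers pair the libraries. With the replicate block AXL was at -1.34 and 459 genes were called. Genes outside the authors' limits have no values here, so the test was not repeated over all expressed genes.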
